A study of Mus musculus with 6 samples.

Results

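The 9 genes Gpam, Agpat2, Agpat3, Lpin1, Lpin2, Dgat1, Dgat2, Mogat1 and Mogat2 encode enzymes that build triglyceride, and they were followed here in livers of mice on a ketogenic diet and on chow. They were taken by name, through every probe set that the platform annotation assigns to exactly 1 of these symbols, and gave 19 of the 45101 probe sets of the table, or 9 of 18194 genes with a symbol of their own. The study set 3 Affymetrix arrays of ketogenic livers against 3 of chow livers. All mice were C57BL/6, 8 weeks old when feeding began. They were fed for 6 weeks, either the very fat-rich, carbohydrate-poor ketogenic diet F3666 from Bio-Serv or the grain-based Labdiet 5008, and were fed ad lib when livers were taken in the morning. RNA of 2 to 3 animals per diet was used, and since nothing says that each array held 1 mouse, p-values here cover the spread between arrays, which may be technical. Replicate numbers were given in accession order and pair nothing.

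Liver cells make triglyceride on a glycerol backbone. Glycerol-3-phosphate acyltransferases add the first fatty acid, lysophosphatidic acid acyltransferases the next, lipins remove the phosphate to give diacylglycerol, and diacylglycerol acyltransferases add the last fatty acid. A side entrance, best known from the intestine, starts from monoacylglycerol and uses the Mogat enzymes. In liver the pathway stores and exports fat that is made from carbohydrate or that arrives from the diet and from adipose tissue.

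No probe set of these 9 genes passed the test between the diets. Signals were MAS5 signals, compared on the log2 scale with limma and Benjamini-Hochberg adjustment over the 22515 probe sets with a mean log2 signal of at least 3.35, and called at an adjusted p under 0.05. Of the 19 probe sets, 17 of 8 genes passed this filter and 0 of the 17 were called, where 4.64% of all probe sets were. At an unadjusted p under 0.05 there were 2 of 17, against 20.0% of all. Ketogenic and chow values were fully separated for 6 of the 17, against 26.7% of all probe sets. The ketogenic arrays lay wholly above the chow arrays for 5 and wholly below for 1, against 21.6% and 5.06% of all. Most of the 5 were probe sets of Lpin2, the dimmest of them with a chow mean under the background. Log2 changes were positive for 11 of the 17, against 68.1% of all. Log2 changes ran between -0.64 and 1.11 with a median of 0.31, and the median over all probe sets was 0.22. Agpat3 and Lpin2 supplied 8 of the 11 positive values, and with 1 probe set per gene the median was -0.05. The median absolute log2 change was 0.43 for the synthesis enzymes and 0.37 over all probe sets. The smallest absolute log2 change called in the whole table was 0.97. In whole liver, fewer cells of a type and less RNA per cell cannot be told apart.

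**Figure D1:**
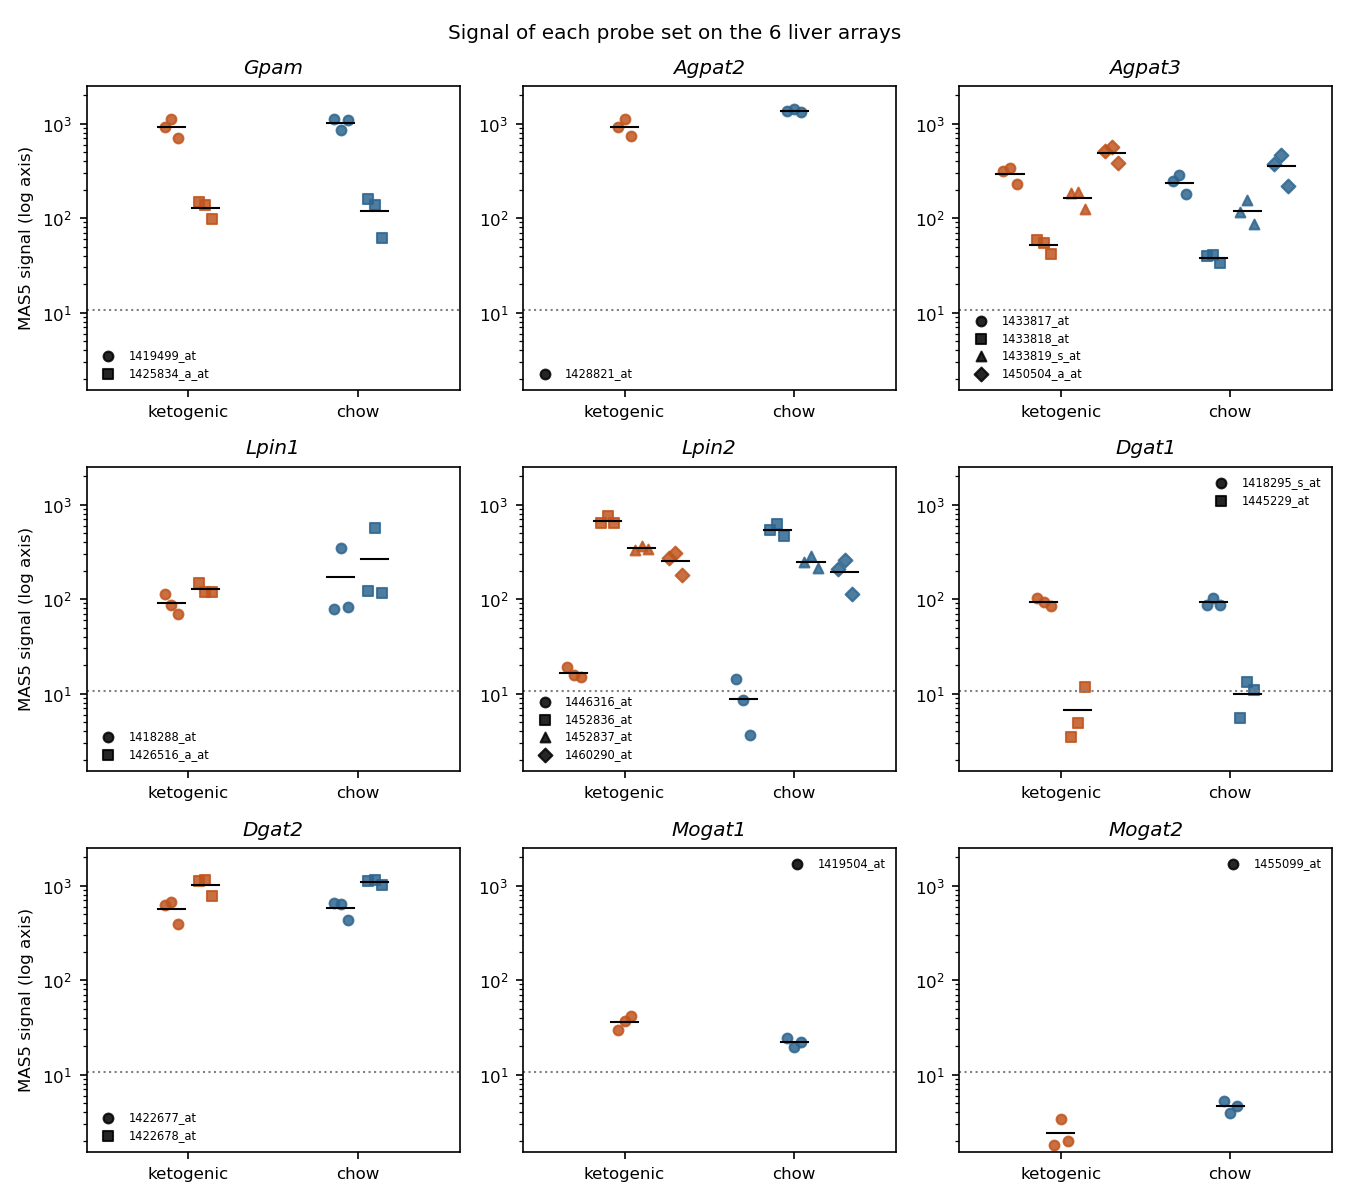
MAS5 signal (log axis) of all 19 probe sets on the 3 ketogenic (left) and 3 chow (right) arrays, with black bars for the mean of 3 arrays and a dotted line for the background of 10.7. The diets lie close for most genes, Lpin1 has 1 chow array far above the rest, and Mogat2 stays under the background on every array.

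The arrays differed in ways that touch these values. The 2% trimmed mean signal was 45.6 to 60.7 on ketogenic arrays and 39.6 to 53.1 on chow arrays, lowest in each diet on array 3. Ketogenic array 3 had the lowest ketogenic signal for 13 of the 17 probe sets and chow array 3 the lowest chow signal for 13, and 9 and 7 after scaling to a common trimmed mean. Actin, whose 3' to 5' signal ratio reads RNA integrity, stood at 1.49 to 1.63 on ketogenic and 2 to 2.2 on chow arrays, and the part of this in the results was not tested. Ketogenic array 2 carried skeletal muscle transcripts: Acta1 was 27.5-fold and Pvalb 9.32-fold above the next highest array. Summed signals of 8 macrophage markers were 3366 to 4880 on ketogenic and 916 to 1187 on chow arrays, with 6 of 8 higher past the threshold, and those of 6 stellate cell markers 1869 to 2535 and 795 to 945, with 3 higher. Of 4 adipocyte markers none passed, and their sums were 53.3 to 92.3 on ketogenic and 52.3 to 82.7 on chow arrays. The hormones Adipoq and Lep were at or under the background on every array. Retn read 3.1, 31.2 and 20.4 on ketogenic and 34.9, 17.2 and 13.7 on chow arrays. Lipe read 29.5 to 58.4 on ketogenic and 32.6 to 46 on chow arrays. Of 7 hepatocyte markers 1, the urea cycle enzyme Cps1, was lower, and the list summed to 36298 to 41811 on ketogenic and 46840 to 49139 on chow arrays. The part of these cell types in the results was not tested.

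The pathway's first step, catalysed in the mitochondrial outer membrane by the product of Gpam, did not pass the test on either of its probe sets. The brighter Gpam probe set had signals of 928.7, 1129.8 and 709.9 on ketogenic arrays, against 1130, 846 and 1086 on chow arrays. The diets overlapped, and the log2 change was -0.16 ± 0.28 (SE; 95% interval -0.79 to 0.47; limma adjusted p = 0.783). The other Gpam probe set read 146.8, 139 and 96.9 on ketogenic and 157.6, 138.3 and 61 on chow arrays, with a log2 change of 0.19 (interval -0.70 to 1.08). Gpam is a known target of SREBP-1c, the insulin-driven regulator of lipogenesis, whose own transcript Srebf1 had a log2 change of -0.42 (limma adjusted p = 0.537). Both Gpam probe sets changed sign under another scaling, as given further on.

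At the next step Agpat2 and Agpat3 had log2 changes of opposite sign, neither past the threshold. Of the further isoforms of this family measured, Agpat1 had log2 changes of -0.07 and 0.14 on its kept probe sets, Agpat4 of 0.74 and Agpat5 of 0.32, none past the threshold. Agpat2, the isoform whose loss in humans causes congenital lipodystrophy, had signals of 931, 1125.6 and 736 on ketogenic arrays, against 1349.3, 1426.1 and 1324.9 on chow arrays. All 3 ketogenic values lay below all 3 chow values, and means were 931 ± 195 on ketogenic and 1367 ± 52.8 on chow arrays (SD, n = 3 each). The log2 change was -0.57 ± 0.26 (SE), with a 95% interval of -1.16 to 0.01 and a limma adjusted p = 0.257. Under the 15 alternatives this adjusted p ranged between 0.0517, with a common trimmed mean, and 0.491, and the log2 change stayed negative in each. Agpat2 is the only one of the kept probe sets that lay wholly lower on the ketogenic diet.

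Agpat3, an isoform of the endoplasmic reticulum and Golgi, had log2 changes above 0 on all 4 of its probe sets and passed on none. The brightest had signals of 515.3, 559.8 and 380.2 on ketogenic arrays, against 374.8, 465.7 and 216.7 on chow arrays. Its log2 change was 0.51 ± 0.34 (SE; interval -0.26 to 1.28; limma adjusted p = 0.436), and those of the other probe sets were 0.31, 0.42 and 0.49. The diets did not overlap on the probe set at 0.42, with 58.4, 54.3 and 41.2 on ketogenic and 39.5, 40.8 and 33.5 on chow arrays. It was past the threshold when arrays were scaled to the hybridization controls (limma adjusted p = 0.0437), a scaling under which 22.7% of all probe sets were called.

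The ratio of the Agpat3 to the Agpat2 signal within an array does not change when whole arrays are rescaled by a factor. On the brightest probe sets the log2 ratio was -0.85, -1.01 and -0.95 on ketogenic arrays, against -1.85, -1.61 and -2.61 on chow arrays. Every ketogenic ratio lay above every chow ratio, with a difference in means of 1.09. The two-sided exact permutation p was 0.1, the smallest that 3 against 3 arrays allow, or 0.3 after Benjamini-Hochberg adjustment over the 3 isoform pairs compared, which were chosen after the values were seen. The pair was picked for its opposite signs, so this ratio is a description of the same values, and it says nothing of which transcript is more abundant, since probe sets differ in their response.

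The promoter windows of this pair, 250 bases before to 50 after a transcription start from RefSeq (GRCm38.p6), are shown because these isoforms of 1 step differed in sign. Capitals mark CANNTG, the general E-box pattern, which is not the site of any particular factor. Agpat2 lies at chr2:26604368-26604667 and Agpat3 at chr10:78351651-78351950, both on the minus strand and printed 5' to 3' along the gene; the Agpat3 start used lies inside the gene's full RefSeq span.
Agpat2: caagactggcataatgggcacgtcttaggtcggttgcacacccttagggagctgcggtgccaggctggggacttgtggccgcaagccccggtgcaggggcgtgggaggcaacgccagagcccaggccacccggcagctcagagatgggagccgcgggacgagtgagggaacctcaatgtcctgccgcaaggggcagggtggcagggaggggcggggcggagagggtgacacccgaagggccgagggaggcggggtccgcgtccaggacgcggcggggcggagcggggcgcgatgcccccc
Agpat3: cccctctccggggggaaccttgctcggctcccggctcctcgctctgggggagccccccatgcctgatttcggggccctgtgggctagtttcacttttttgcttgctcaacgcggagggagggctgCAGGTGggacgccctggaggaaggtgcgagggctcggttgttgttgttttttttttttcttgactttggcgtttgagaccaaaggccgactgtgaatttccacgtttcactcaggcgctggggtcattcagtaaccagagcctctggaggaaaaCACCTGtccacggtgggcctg
The Agpat2 window had 0 E-boxes and a GC content of 72%, and the Agpat3 window 2 and 59%. Of 32851 such windows of all genes 72.3% held an E-box. RefSeq windows were matched for 6 of the 9 genes, 9 windows in all, of which 6 held an E-box. On both strands, 0 of the 9 held TCACNCCAC, a sterol response motif found in 1.24% of all windows. A match is a description of letters and not a binding site.

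**Figure D2:**
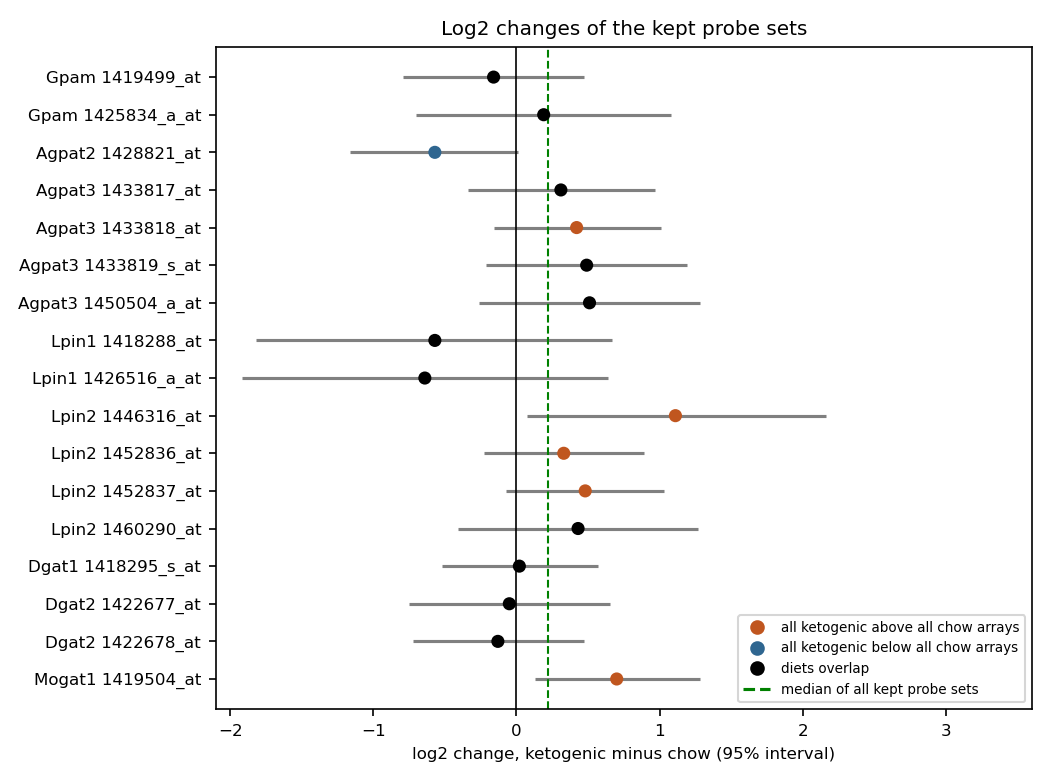
Log2 change (ketogenic minus chow, points) with 95% intervals (lines) for the 17 kept probe sets, coloured by whether the 3 ketogenic arrays lay wholly above or below the 3 chow arrays. The intervals of 15 of 17 reach 0, Agpat2 is the only blue point, and the dashed line marks the median of all probe sets, 0.22.

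Neither Lpin1 nor Lpin2, phosphatases that make diacylglycerol, passed the test. The third lipin, Lpin3, did not pass the filter, with 16.1, 17.4 and 17.7 on ketogenic and 8.6, 10.8 and 2.4 on chow arrays. Its diets did not overlap, and with chow signals under the background raised to it the ketogenic signal was at least 1.59-fold higher. Lpin1 also acts in the nucleus as a partner of PPAR-alpha and PGC-1-alpha and is induced by fasting and glucocorticoids. It was high on 1 array and varied far less over the other 5. Its brighter probe set had signals of 149.1, 117.6 and 117.8 on ketogenic arrays, against 120.8, 562.7 and 115.3 on chow arrays. The other read 113.6, 87.2 and 69.5 on ketogenic and 78.9, 348.9 and 82.3 on chow arrays. Chow array 2 was thus 3.77-fold and 3.07-fold above the next highest array on these probe sets, whose profiles run alike (r = 0.987 over the 6 arrays, a description). The log2 changes were -0.64 ± 0.56 and -0.57 ± 0.55 (SE), with limma adjusted p = 0.561 and 0.593. Without chow array 2 they were 0.11 and 0.13, so their sign rests on that array.

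At a cut of 3-fold, chow array 2 stood apart for few other probe sets, but for more than most arrays did. With signals raised to the background first, 9 of 22515 were highest there by at least 3-fold over every other array. Ketogenic array 2 also had 9, and each other array 0 or 1. At a cut of 2-fold chow array 2 had 34, chow array 1 had 36 and ketogenic array 2 had 87. The other arrays had 7 to 15, so how far chow array 2 stood apart depends on the cut. Lpin1 supplied 2 of the 9 on chow array 2. The others were the steroid hydroxylase Cyp17a1, the drug-metabolizing Cyp2b10, the metal-binding Mt1 and Mt2, 2 probe sets of the heat shock gene Hspa1b, and 1 annotated with several genes. By the rule for likeness, the smallest Euclidean distance between centred log2 signals over 6 arrays, the genes most like the brighter Lpin1 probe set were Tbc1d8 (distance 0.83), Nlrp12 (0.90) and Hspa8 (0.94). The other Lpin1 probe set lay at 0.33. Fkbp5, a classic glucocorticoid-induced gene, had signals of 83.4, 102.5 and 73.7 on ketogenic arrays, against 60.2, 230.4 and 37.5 on chow arrays. It was chosen after its values were seen, so its peak on chow array 2 is a description only. What set chow array 2 apart was not tested.

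**Figure D3:**
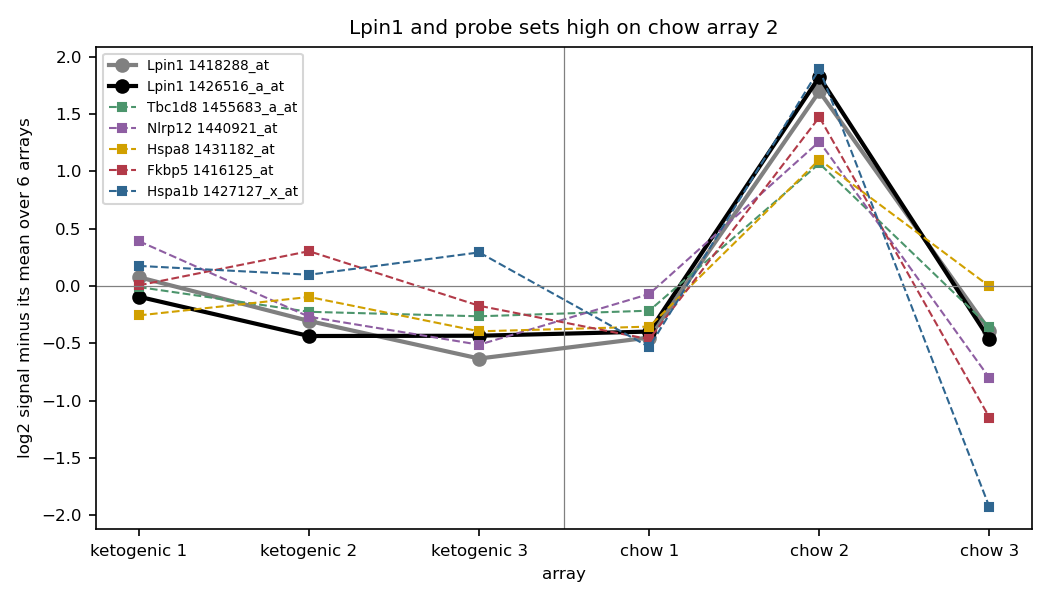
Log2 signal minus its mean over the 6 arrays for both Lpin1 probe sets (solid), the 3 most similar genes, and Fkbp5 and Hspa1b (dashed), by array. All 7 lines peak on chow array 2, a profile for which the dashed genes were picked. Both Lpin1 lines vary far less over the other 5 arrays.

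The Lpin1 window in RefSeq, shown because this gene varied most between chow arrays, begins at a start inside the gene's full span (chr12:16610917-16611216, minus strand, GRCm38.p6). It held 2 E-boxes, in capitals, close together.
Lpin1: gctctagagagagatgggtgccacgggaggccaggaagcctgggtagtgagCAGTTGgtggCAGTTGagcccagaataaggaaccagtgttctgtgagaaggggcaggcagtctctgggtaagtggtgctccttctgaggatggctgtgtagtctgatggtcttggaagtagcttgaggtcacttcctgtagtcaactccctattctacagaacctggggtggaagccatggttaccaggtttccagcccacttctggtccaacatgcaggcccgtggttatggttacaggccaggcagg

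Lpin2, the lipin best known from liver, had log2 changes above 0 on all 4 of its probe sets, none past the threshold. The brightest had signals of 634.6, 762 and 639.2 on ketogenic arrays, against 534.7, 617 and 467.9 on chow arrays. The diets did not overlap, means were 679 ± 72.3 on ketogenic and 540 ± 74.7 on chow arrays (SD, n = 3 each), and the log2 change was 0.33 ± 0.25 (SE; interval -0.23 to 0.89; limma adjusted p = 0.488). A second probe set did not overlap either, at 332.1, 363.9 and 337.2 on ketogenic and 245.8, 287.5 and 213.4 on chow arrays, with a log2 change of 0.48 and limma adjusted p = 0.316. It passed the threshold when scaled to the hybridization controls (0.0335).

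The dimmest Lpin2 probe set had the highest log2 change of all 17. It read 19, 15.7 and 15 on ketogenic and 14.3, 8.6 and 3.6 on chow arrays, so that the chow mean lay under the background of 10.7. With signals under the background raised to it, the ketogenic signal was at least 1.39-fold higher, a bound that allows for the background only. The fitted log2 change of 1.11 ± 0.46 (SE) depends on signals under the background and had a limma adjusted p = 0.223. The genes most like it over the 6 arrays were Med17 (distance 0.24), Rmdn1 (0.24) and Prkacb (0.26). The fourth Lpin2 probe set had a log2 change of 0.43. Within arrays, the log2 ratio of Lpin2 to Lpin1 was 2.09, 2.70 and 2.44 on ketogenic and 2.15, 0.13 and 2.02 on chow arrays, overlapping between diets (exact permutation p = 0.2).

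At the final acylation the log2 changes of the 3 kept probe sets lay close to 0. Dgat1, which favours re-esterification of fatty acids that enter the cell, had signals of 103.1, 93.7 and 84.3 on ketogenic arrays, against 86.6, 103.1 and 87.3 on chow arrays. Its log2 change was 0.02 ± 0.24 (SE), with a 95% interval of -0.52 to 0.57 and limma adjusted p = 0.969. Dgat2, which works at the endoplasmic reticulum and the lipid droplet and favours newly made fatty acids, had signals of 1113.4, 1140.9 and 777.9 on ketogenic arrays, against 1110.2, 1150.2 and 1003.9 on chow arrays. The low value was that of ketogenic array 3, and the log2 change was -0.13 ± 0.26 (SE; interval -0.72 to 0.47; limma adjusted p = 0.82). Its second probe set had a log2 change of -0.05 (interval -0.75 to 0.65). For these 3 probe sets the intervals leave out any fall or rise beyond 0.75 on the log2 scale at the deposited scaling, and smaller changes could not be called. The log2 ratio of Dgat2 to Dgat1 averaged 3.41 ± 0.20 on ketogenic and 3.56 ± 0.11 on chow arrays (SD, n = 3 each; exact permutation p = 0.4). A second Dgat1 probe set did not pass the filter, with 3.5, 4.9 and 11.6 on ketogenic and 5.5, 13.2 and 10.8 on chow arrays, both means under the background.

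Mogat1, which acylates monoacylglycerol, is sparse in normal liver and is known to be induced through PPAR-gamma in fatty liver. It had signals of 29.9, 36.9 and 41.5 on ketogenic arrays, against 24.6, 19.4 and 22.2 on chow arrays. All 6 lay above the background and every ketogenic value above every chow value, with means of 36.1 ± 5.84 on ketogenic and 22.1 ± 2.6 on chow arrays (SD, n = 3 each). The log2 change was 0.70 ± 0.25 (SE), with a 95% interval of 0.13 to 1.28. Its limma adjusted p = 0.167 was the smallest of the 17 but not past the threshold, and 13.4% of all probe sets had a smaller p. Over the scalings the log2 change was 0.45 to 1.07, and leaving out each array in turn it was 0.60 to 0.83. It was called only with scaling to the hybridization controls (0.0233, in a range up to 0.372).

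The Mogat1 window is shown because its probe set had the smallest p of the 17 kept (chr1:78510810-78511109, plus strand, GRCm38.p6). It had a GC content of 43.7% and 2 E-boxes, in capitals.
Mogat1: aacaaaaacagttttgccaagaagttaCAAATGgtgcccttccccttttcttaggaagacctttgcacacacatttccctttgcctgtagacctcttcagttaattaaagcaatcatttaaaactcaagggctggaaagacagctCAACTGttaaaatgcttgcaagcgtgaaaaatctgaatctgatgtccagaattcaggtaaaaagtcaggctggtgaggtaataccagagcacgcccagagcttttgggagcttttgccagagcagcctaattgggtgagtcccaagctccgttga
The transcript of Pparg itself, PPAR-gamma, was 94.8, 119.6 and 90.6 on ketogenic arrays, against 60, 28.9 and 32.4 on chow arrays. It rose by 1.40 ± 0.33 (log2, SE) with limma adjusted p = 0.0495. Genes with a profile most like Mogat1, looked up after its values were seen, were Rab27b (distance 0.13), Tns3 (0.17) and Slc18b1 (0.19). Those most like Agpat2 were Bmpr1a (0.07), Cat (0.12), which encodes catalase, and Kcnn2 (0.13).

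Mogat2, the main monoacylglycerol acyltransferase of the intestine, read 1.8, 3.4 and 2 on ketogenic and 5.3, 3.9 and 4.7 on chow arrays. All 6 signals were under the background of 10.7, the probe set did not pass the filter, and no fold is given. In the fit with no filter its unadjusted p was 0.024, against 0.0294 for Mogat1, and neither passed after adjustment (0.299 and 0.319). Enterocytes depend on Mogat2 for fat absorption. Of 5 enterocyte markers measured, the structural gene Vil1 and the intestinal factor Cdx2 were at or under the background on every array. Lgals4 lay above it on every array, at 63, 45 and 27 on ketogenic and 32.1, 32.6 and 21 on chow arrays, without passing. Fabp2 and Apoa4 were higher on the ketogenic diet past the threshold. Both were also far above the background on chow arrays, Fabp2 at 560.1, 469.7 and 352.3 and Apoa4 at 632, 1924.5 and 509.7. The 5 summed to 5599 to 7356 on ketogenic and 893 to 2434 on chow arrays, with Apoa4 averaging 4984 and 1022. The part of enterocytes in these signals was not tested.

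Rescaling whole arrays by a factor moved all log2 changes by the same amount, while quantile normalization moved them unequally: Agpat2 stood at -0.60 under it, against -0.57 as deposited, and the dimmest Agpat3 probe set at 0.10, against 0.42. The median log2 change of all probe sets was 0.221 as deposited and shifted by -0.112 after setting array medians equal, by -0.214 after setting trimmed means equal, by -0.232 after quantile normalization and by 0.362 after scaling to the hybridization controls, whose signal was 478.3 to 511.2 on ketogenic and 633.2 to 650.3 on chow arrays. On their brightest probe sets Agpat2 and Lpin1 were negative, and Agpat3, Lpin2 and Mogat1 positive, under all 5 scalings. Gpam and Dgat2 were positive only when scaled to the hybridization controls, and Dgat1 was negative under 3. Minus the median of all probe sets, values are the same by construction under the 4 scalings by a factor, so only quantile normalization is an alternative there. On that scale Agpat2 lay between -0.80 and -0.59, Lpin1 between -0.89 and -0.86, Gpam between -0.38 and -0.19, Dgat2 between -0.35 and -0.14, Dgat1 between -0.27 and -0.20, Lpin2 between 0.11 and 0.21, Agpat3 between 0.29 and 0.34 and Mogat1 between 0.46 and 0.48. Summed over the brightest probe set of each of the 8 genes, signals were 4405.1, 4966.3 and 3486.8 on ketogenic and 4731, 5190.2 and 4324.2 on chow arrays, overlapping between the diets.

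**Figure D4:**
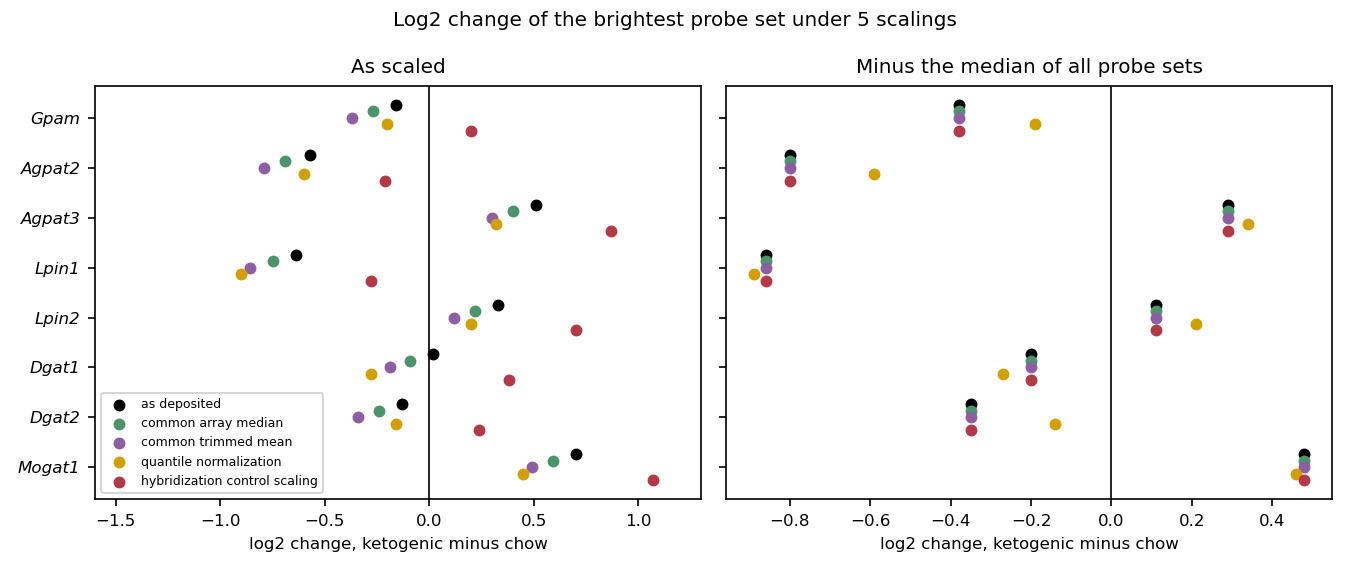
Log2 change (ketogenic minus chow) of the brightest probe set of each gene under the deposited scaling and 4 others, as scaled (left) and minus the median of all probe sets (right). On the right the 4 scalings by a factor coincide by construction, and only quantile normalization differs, with Mogat1 at 0.46 against 0.48 and Agpat2 at -0.59 against -0.80.

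Around these enzymes, a few neighbours of the pathway passed the test, in lists chosen with earlier results of these data known. Whether their share called, 7 of 107 probe sets, differs from 0 of 17 or from 4.64% of all was not tested. Of 64 further genes in 7 lists 62 were matched to probe sets and 57 had a kept one, 107 probe sets in all. Of these 6, of 4 genes, rose and 1 fell, against 4.08% higher and 0.564% lower among all probe sets, and their median log2 change was 0.25 against 0.22. Among other acyltransferase and phosphatase isoforms 1 of 8 genes rose: Gpat3, a first-step enzyme prominent in adipose tissue, had signals of 152.1, 178.1 and 119.4 on ketogenic arrays, against 17.8, 59.3 and 15.5 on chow arrays. Its log2 change was 2.54 ± 0.49 (SE; limma adjusted p = 0.0248), with chow array 2 again the highest chow array. The call ended with equal trimmed means (adjusted p = 0.0521) and with quantile normalization (0.0664). Gpat4, the other liver isoform of this step, had a log2 change of -0.28 and was not called.

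In the phospholipid branches 1 of 13 genes rose, the choline kinase Chka, whose bright probe set read 225.5, 239.3 and 215.4 on ketogenic and 85.4, 74.5 and 119.5 on chow arrays. Its log2 change was 1.31 (limma adjusted p = 0.0301), and both called Chka probe sets lost the call under these scalings, at adjusted p = 0.0657 to 0.0933. Among 10 genes of triglyceride hydrolysis, 2 probe sets of Mgll, monoacylglycerol lipase, which breaks down the substrate of the Mogat enzymes, rose. The brighter of these 2 read 829.4, 984.7 and 638.3 on ketogenic arrays, against 340.7, 329.8 and 241.8 on chow arrays (log2 change 1.42, limma adjusted p = 0.0267). The brightest Mgll probe set of all, with means of 870 on ketogenic and 460 on chow arrays, was not called (log2 change 0.92, limma adjusted p = 0.0849). Abhd5, the coactivator of adipose triglyceride lipase, fell at least 2.79-fold on its dimmest probe set (limma adjusted p = 0.0385), while its brighter ones had log2 changes of 0.48 and -0.04. Of 10 regulators Pparg rose and no other passed, and its call ended with quantile normalization (adjusted p = 0.0549). With no filter on low signals all 7 calls ended, at adjusted p = 0.125 to 0.205.

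No gene passed among 4 of glycerol 3-phosphate supply, 6 of acyl-CoA activation and 6 of fat partitioning to droplets. Their brightest members, the glycerol channel Aqp9, the very long-chain acyl-CoA synthetase Slc27a2 and the droplet coat protein Plin2, had log2 changes of 0.17, 0.04 and 0.77. The medians of these lists were 0.57, -0.01 and 0.30. Kept probe sets of glycerol 3-phosphate supply ran between -0.23, for 1 of Gpd1, and 1.17, for 1 of Gpd2. Each of the 7 called probe sets lost its call when any 1 of 5 arrays was left out, and kept it without the sixth: chow array 1 for Mgll, Pparg and the dim Chka probe set, chow array 2 for Gpat3, chow array 3 for the bright Chka probe set, and ketogenic array 2 for Abhd5. Adjusted p in these fits reached 0.0803 for Gpat3, 0.13 for Chka, 0.1 for Mgll, 0.143 for Pparg and 0.12 for Abhd5.

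**Figure D5:**
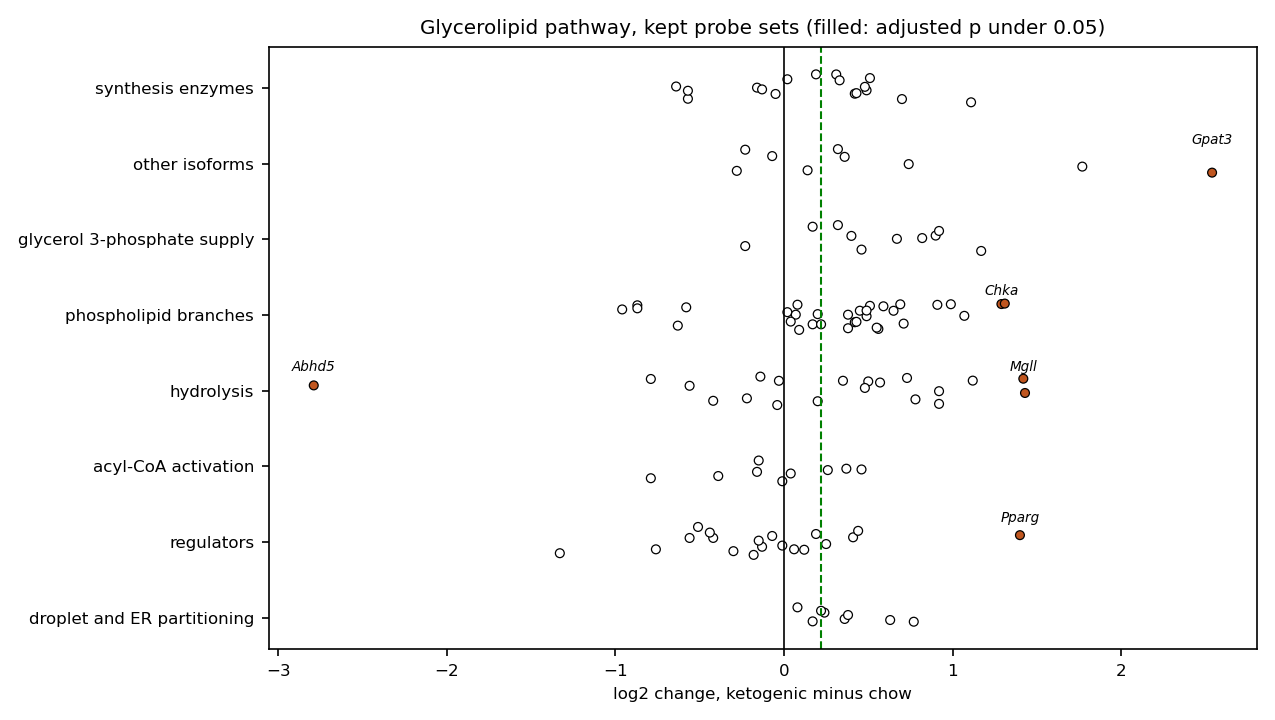
Log2 change (ketogenic minus chow) of each kept probe set of the synthesis enzymes (top) and of the 7 surrounding lists, filled where the adjusted p was under 0.05, with the dashed line at the median of all probe sets, 0.22. The 17 points of the synthesis enzymes are all open and lie between -0.64 and 1.11. Of the 107 points of the lists, 7 are filled, of Gpat3, Chka, Mgll, Pparg and Abhd5, where 4.64% of all probe sets were called.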

How the data were processed

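Linear MAS5 signal intensity per probe set was deposited by the authors for 6 arrays. The submitters' processing notes name GCOS and MAS5, without version or scaling target. Total liver RNA was labelled by the one-cycle Affymetrix procedure, per the labels' protocols. No 2 arrays held the same values. Signals were kept at the deposited scaling, floored at 1.1, which is the table's 10th percentile, and taken to log2. Of the 45101 probe sets, 64 were controls, and 22515 others were kept for a mean log2 signal no lower than 3.35, the median. The test was limma's (version 3.58.1, lmFit then eBayes, R 4.3.3), two-sided, with 4.68 prior degrees of freedom, and p-values were adjusted by Benjamini-Hochberg. The background of 10.7 averages, over arrays and on the log2 scale, the 95th percentile among 27 bacterial poly-A controls. The platform annotation gave 34958 probe sets exactly 1 symbol. Single values were compared by exact permutation (SciPy 1.17.1). In 25 simulated data sets with 200 changed probe sets each, the fit called 0.72% of 2-fold and 43.9% of 4-fold changes. The 200 were fewer than the 1045 called here, so the share recovered need not be the same. The number of arrays limits the precision. Alternatives were 4 other scalings, no filter, a floor at the background, a trended robust prior, 1 probe set per gene, no probe sets ending in _x_at, _s_at or _a_at, and leaving out each array. Named genes were all 9 and, in each pathway list, up to 4 called genes or the brightest. The genes, lists and tests were chosen with earlier results of these data known, so no p is given for a sum over them. Of the marker lists not given in the text, 0 of 4 cholangiocyte and 0 of 5 endothelial genes were higher past the threshold on the ketogenic diet. Cholangiocyte sums were 86.5 to 105 on ketogenic and 46.8 to 70.8 on chow arrays, and endothelial sums 368 to 522 and 266 to 388.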

Additional observations from a re-analysis of the deposited data

How the results depend on the processing

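None of the synthesis enzymes' probe sets was called as deposited or under 14 of the 15 alternatives. With scaling to the hybridization controls 3 were called, 1 each of Agpat3, Lpin2 and Mogat1, and the median log2 change of the 17 was 0.68; with 1 probe set per gene that median was -0.05 over 8 genes. Signs turned for probe sets near 0. With scaling to the hybridization controls the log2 change was 0.20 for the brighter Gpam probe set and 0.31 and 0.24 for Dgat2. The other Gpam probe set gave -0.02 once trimmed means were equal and -0.09 under quantile normalization, and Dgat1 -0.19 and -0.28 with these and -0.09 with a common array median. With each array left out in turn, log2 changes ranged between -0.94 and 0.13 and between -1.03 and 0.11 for Lpin1 (positive only without chow array 2), -0.32 and 0.02 and -0.23 and 0.45 for Gpam, -0.05 and 0.10 for Dgat1, and -0.23 and 0.19 and -0.22 and 0.05 for Dgat2. No sign of the 17 turned without ketogenic array 2, the one with muscle transcripts.

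Over all probe sets 1045 were called, 5111 with scaling to the hybridization controls, 178 with no filter (of 45037), 1917 with a floor at the background, 1872 with a trended robust prior, 622 without probe sets ending in _x_at, _s_at or _a_at, and 330 to 949 with an array left out. Of the calls 87.8% were higher as deposited, 77.4% once array medians were equal, 65.9% once trimmed means were equal and 64.8% with quantile normalization, against 97.5% with the hybridization controls. In the pathway lists 7 were called, 14 with a common array median, 31 with the hybridization controls, 0 with no filter, 11 with the floor, 17 with the trended prior, 3 with 1 probe set per gene, 3 without the named probe set types, and 0 to 5 with an array left out. The causes were not tested. No paired analysis was possible because the replicate numbers follow the order of accession.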
